A study of Mus musculus with 11 samples.

Results

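The 41 interferon-stimulated genes described here were taken as a list of gene symbols and matched to the Ensembl gene identifiers of the count files, and all 41 were found among the 55536 genes measured. All 41 also passed the filter on low counts and were tested among 20307 genes. RNA was sequenced in bulk from 11 libraries of epidermal cells from dorsal skin, each from a pool of 2 male mice of the CD4Cre R26-tdT strain on a C57Bl6/N background. In these mice a cell that has expressed Cre under the CD4 promoter, and any progeny of it, carries the red fluorescent reporter tdT. Cells were released with thermolysin, and those positive for CD49f and CD34 were sorted by Sca-1 and tdT into 4 groups: Sca-1+ tdT+ (3 libraries), Sca-1+ tdT- (2 libraries), Sca-1neg tdT+ (3 libraries) and Sca-1neg tdT- (3 libraries). Every group shares the strain, the reporter allele, the sex and the CD49f and CD34 gate, and no mouse of another genotype is among these samples. Mice were 29 weeks old for the libraries numbered 1 and 32 weeks old for all others. The labels do not say whether libraries with the same number share mice, so p-values measure the spread between these pooled samples.

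Interferons are secreted proteins that bind receptors at the cell surface and signal through JAK kinases and STAT proteins. Type I and type III interferons act mainly through a complex of STAT proteins with IRF9 that binds the interferon-stimulated response element (ISRE), and interferon gamma acts mainly through STAT pairs that bind the gamma-activated sequence (GAS). The genes they switch on include sensors of viral RNA, enzymes that degrade it, membrane proteins that block viral entry or release, and GTPases that attack intracellular pathogens. Keratinocytes, endothelial cells, macrophages and T cells can all express such genes, and in bulk RNA fewer cells of one type and less RNA per cell cannot be told apart.

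Total counts ran from 17409131 to 46542177 per library. The tdT tracer read 224 to 307 CPM (counts scaled to the library total) for Sca-1+ tdT+, but 133, 2.05 and 252 CPM for the 3 libraries labelled Sca-1neg tdT+ and 2.54 to 4.89 CPM for the tdT- libraries of both sorts. The tracer of replicate 2 labelled Sca-1neg tdT+ was thus at the level of tdT- libraries. In addition, 12 liver transcripts such as Alb and Apoa1 reached 29490.0 and 14094 CPM in replicates 1 and 2 labelled Sca-1neg tdT+ and 16618 CPM in replicate 2 of Sca-1neg tdT-, and at most 104 CPM in the other 8. Results are therefore given with all 11 libraries and again without these 3, which leaves 1 Sca-1neg tdT+ and 2 Sca-1neg tdT- libraries. The gate called for CD34, and Cd34 itself read 24.3, 35.7 and 22.3 CPM for Sca-1+ tdT+, 319.6 and 383 CPM for Sca-1+ tdT-, 468, 735 and 842 CPM for libraries labelled Sca-1neg tdT+ and 864, 638 and 1130.1 CPM for Sca-1neg tdT-. It was lowest in the 3 Sca-1+ tdT+ libraries and highest in Sca-1neg libraries. The 8 hair follicle bulge markers that include it summed to 770.2, 1394 and 722 CPM for Sca-1+ tdT+, 2270.1 and 3682 CPM for Sca-1+ tdT-, 5366, 10257 and 9333 CPM for libraries labelled Sca-1neg tdT+ and 9510.5, 6102 and 10795 CPM for Sca-1neg tdT-.

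RefSeq promoter windows of 300 bases around the transcription start (GRCm38.p6, the mm10 build) were given for 32 of the 41 genes. Mx1, Mx2, Dhx58, Parp14, Zbp1, Usp18, Ifi27, Oas2 and Rtp4 had none in that table. A pair of GAAA runs with 2 bases of any kind between them, a core of the ISRE, was found on either strand in 18 of the 32 windows (56.2%), against 1079 of 27025 genes with a window (3.99%). The letters TTCNNNGAA, the GAS core, which reads the same on both strands, were found in 10 of the 32 (31.2%), against 2582 of the 27025 genes (9.55%). The pair of motifs was searched independently, so a match to one may overlap a match to the other. A match describes the letters in a window and does not show that a factor binds there. The windows below are those of 6 genes picked from those given with full values below, so they are not a sample of the 32. With all 11 libraries, Trim25, Gbp2 and Oas1a passed the threshold in a comparison, and Isg15, Ifitm3 and Bst2 did not. Ifi27, which also passed, has no window. They are written 5' to 3' along the gene's own strand, and capitals mark each match to the ISRE core or its reverse complement, with overlapping matches joined. Gbp2 (chr3:142620413-142620712, plus strand) has 1 match that begins 59 bases before the start site. Oas1a (chr5:120907476-120907775, minus strand) and Isg15 (chr4:156200769-156201068, minus strand) have overlapping matches that begin 20 and 78 bases before it. Ifitm3 (chr7:141010695-141010994, minus strand) has 2 matches that begin 2 and 19 bases after it. Bst2 (chr8:71537423-71537722, minus strand) has overlapping matches that begin 130 bases before it. Trim25 (chr11:88999153-88999452, plus strand) has no match in its window and is shown for contrast.
Gbp2: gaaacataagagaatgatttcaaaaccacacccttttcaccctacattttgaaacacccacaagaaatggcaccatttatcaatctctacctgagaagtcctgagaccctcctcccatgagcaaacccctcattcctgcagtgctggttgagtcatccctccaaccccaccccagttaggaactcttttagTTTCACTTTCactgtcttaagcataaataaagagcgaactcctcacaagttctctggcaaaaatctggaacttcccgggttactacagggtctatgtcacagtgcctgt
Oas1a: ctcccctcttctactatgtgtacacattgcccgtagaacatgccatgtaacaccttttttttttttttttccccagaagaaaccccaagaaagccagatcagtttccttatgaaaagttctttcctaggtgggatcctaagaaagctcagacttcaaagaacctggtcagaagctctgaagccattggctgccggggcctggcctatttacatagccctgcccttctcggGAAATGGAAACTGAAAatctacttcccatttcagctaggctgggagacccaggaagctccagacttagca
Isg15: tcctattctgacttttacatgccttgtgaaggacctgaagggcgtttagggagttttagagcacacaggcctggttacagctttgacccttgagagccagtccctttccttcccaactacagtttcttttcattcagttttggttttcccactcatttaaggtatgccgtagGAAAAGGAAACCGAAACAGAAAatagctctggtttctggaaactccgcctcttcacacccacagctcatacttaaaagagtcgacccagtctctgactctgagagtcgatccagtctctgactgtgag
Ifitm3: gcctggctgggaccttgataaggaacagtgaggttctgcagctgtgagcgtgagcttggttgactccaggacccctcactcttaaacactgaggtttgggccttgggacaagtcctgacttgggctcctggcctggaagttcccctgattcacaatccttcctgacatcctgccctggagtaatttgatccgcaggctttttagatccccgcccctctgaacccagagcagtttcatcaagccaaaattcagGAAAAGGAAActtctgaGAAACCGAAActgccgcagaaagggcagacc
Bst2: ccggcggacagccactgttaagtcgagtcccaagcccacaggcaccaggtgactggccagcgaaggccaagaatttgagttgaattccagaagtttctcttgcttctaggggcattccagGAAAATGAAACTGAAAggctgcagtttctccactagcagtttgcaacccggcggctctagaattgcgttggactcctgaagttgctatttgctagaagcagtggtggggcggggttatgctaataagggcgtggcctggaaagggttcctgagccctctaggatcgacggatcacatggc
Trim25: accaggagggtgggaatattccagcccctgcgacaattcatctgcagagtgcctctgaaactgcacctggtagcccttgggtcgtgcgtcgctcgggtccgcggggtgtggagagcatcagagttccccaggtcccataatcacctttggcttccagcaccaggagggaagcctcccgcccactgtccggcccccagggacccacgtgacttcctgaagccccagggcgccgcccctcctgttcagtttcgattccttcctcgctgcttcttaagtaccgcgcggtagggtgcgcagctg

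As a whole the list was highest in Sca-1+ tdT- libraries. The summed level of the 41 genes was 1141, 1205 and 1087 CPM for Sca-1+ tdT+, 1468 and 1676 CPM for Sca-1+ tdT-, 1222, 1074 and 725 CPM for libraries labelled Sca-1neg tdT+ and 830.1, 999 and 687 CPM for Sca-1neg tdT-. Both Sca-1+ tdT- sums lay above all 9 others, and the lowest pair of sums came from Sca-1neg tdT+ replicate 3 and Sca-1neg tdT- replicate 3. Gene by gene, 37 of the 41 were above their own median over the 11 libraries in Sca-1+ tdT- replicate 2 and 33 in Sca-1+ tdT- replicate 1. The matching counts were 20, 25 and 21 in Sca-1+ tdT+, 22, 23 and 2 in libraries labelled Sca-1neg tdT+ and 5, 13 and 4 in Sca-1neg tdT-. Sca-1neg tdT+ replicate 3 held the lowest value of 22 genes, and 14 of the 41 were under 1 CPM there. In that library Oasl1, Ifit2 and Ifi44 had 0 counts, which at its depth of 18195195 counts allows up to 0.165 CPM (3 counts, a limit that covers counting error only).

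**Figure D1:**
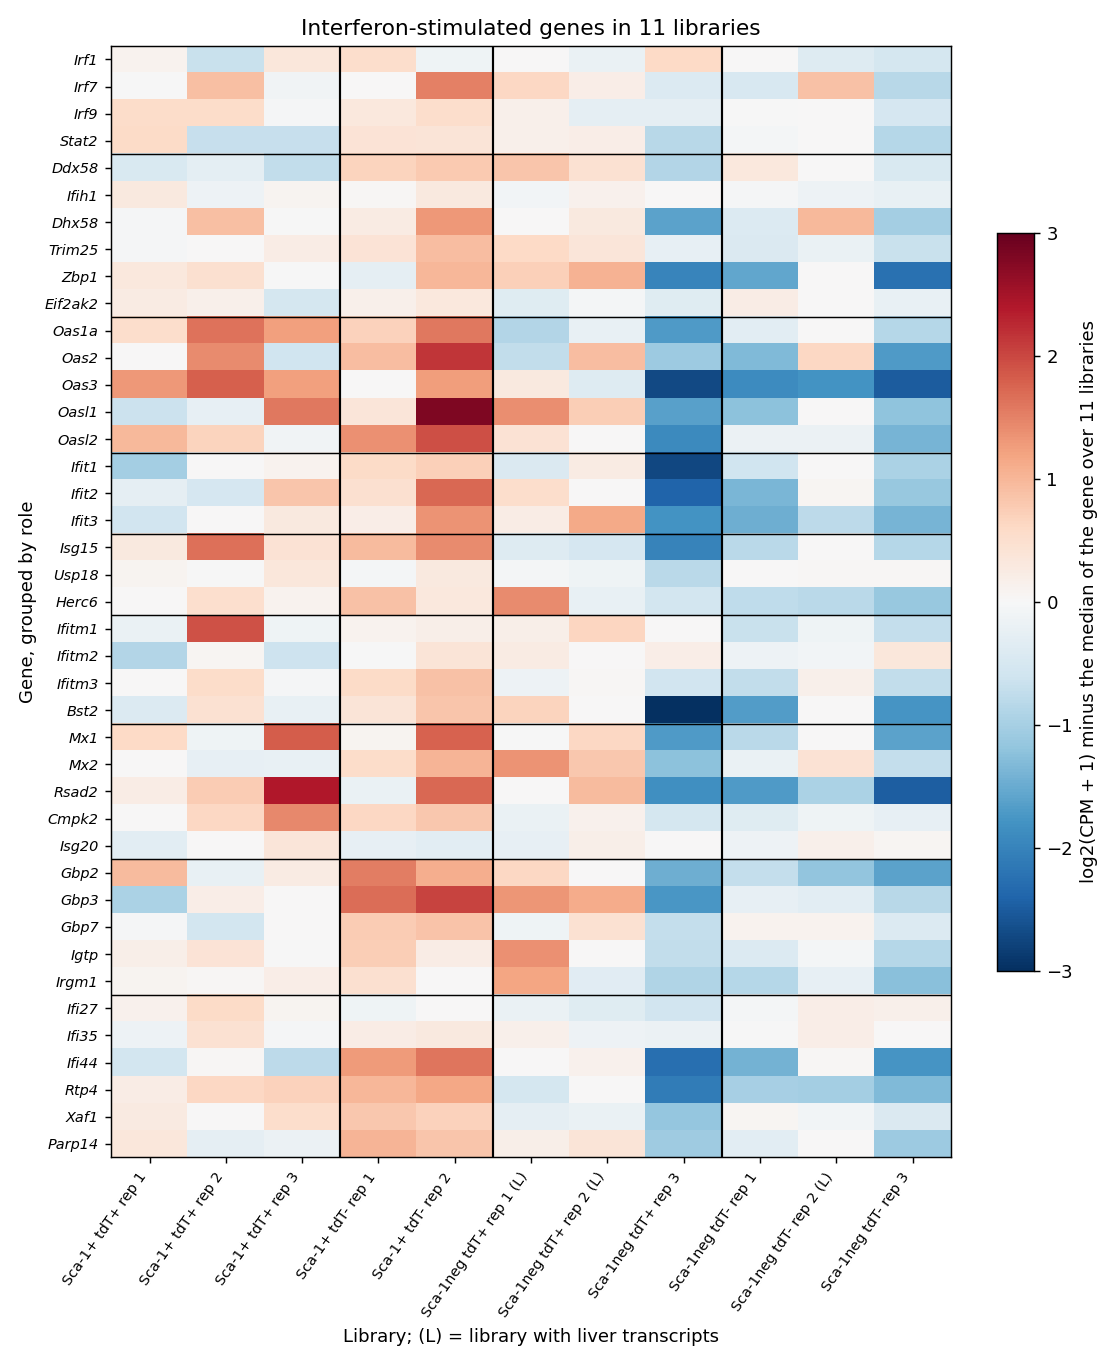
Level of each of the 41 genes (rows, grouped by role) in each of the 11 libraries (columns), as log2(CPM + 1) minus the gene's median over the 11 libraries, with the colour scale ending at -3 and 3. The column of Sca-1+ tdT- replicate 2 is above the median for 37 genes, that of Sca-1neg tdT+ replicate 3 for 2, and (L) marks the 3 libraries with liver transcripts.

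Levels of other cell types' markers differed along with these sums. Endothelial markers (14 genes) summed to 72.6, 134 and 168 CPM for Sca-1+ tdT+, 5050.0 and 5438 CPM for Sca-1+ tdT-, 137, 1162 and 13.3 CPM for libraries labelled Sca-1neg tdT+ and 53.9, 186 and 72.1 CPM for Sca-1neg tdT-. Macrophage and monocyte markers (12 genes) summed to 67.5, 242 and 187 CPM for Sca-1+ tdT+, 135 and 990.3 CPM for Sca-1+ tdT-, 218, 471 and 11.2 CPM for libraries labelled Sca-1neg tdT+ and 10.7, 134 and 8.66 CPM for Sca-1neg tdT-. The endothelial sum was highest in both Sca-1+ tdT- libraries, and the macrophage sum was lowest in the 3 Sca-1neg libraries without liver transcripts, where Adgre1 and Fcgr1 were at 0 in Sca-1neg tdT+ replicate 3. T cell markers (16 genes) summed to 523, 1347 and 905 CPM in Sca-1+ tdT+ libraries, above the 37.0 to 185 CPM of the other 8. The part of these cells in the levels of the interferon-stimulated genes was not tested.

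**Figure D2:**
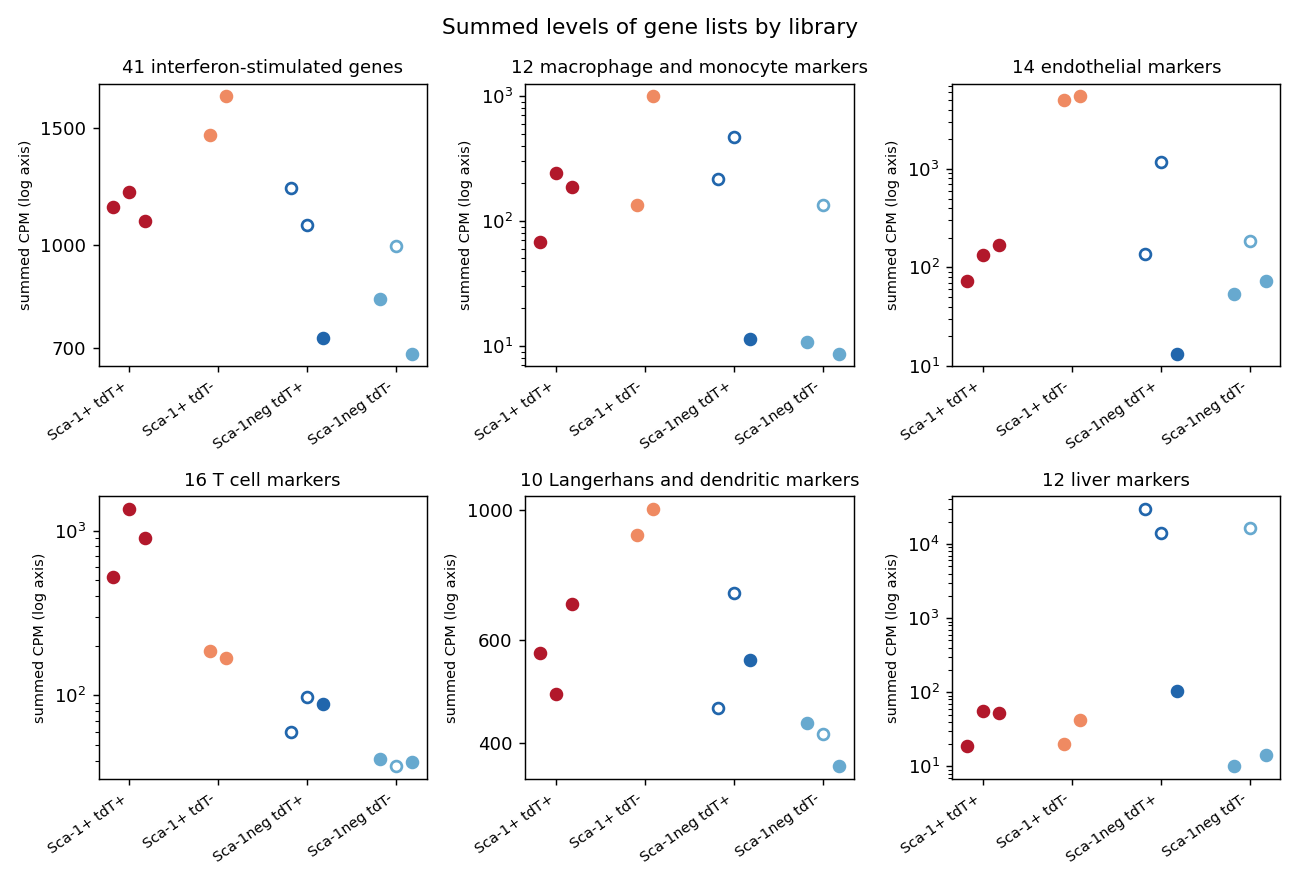
Summed level (CPM, log axis) of the 41 interferon-stimulated genes and of 5 marker lists in each library, with 1 point per library and open symbols for the 3 libraries with liver transcripts. The interferon-stimulated and endothelial sums are highest in the Sca-1+ tdT- libraries, T cell markers are highest in Sca-1+ tdT+ libraries, and the liver sum separates the open symbols from all filled ones.

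Between genes, levels are compared per kilobase of annotated exon. The 5 highest means over the 11 libraries were those of Ifitm3 (247 CPM per kb), Ifi27 (70.0), Ifitm2 (62.5), Irf1 (24.9) and Bst2 (23.7), and the lowest was that of Ifi44 (0.667). Ifitm2 and Ifitm3, which encode membrane proteins that restrict the entry of enveloped viruses, and Bst2, which encodes tetherin, a protein that holds budding virus at the cell surface, are all membrane restriction factors. Ifitm3, at chr7:141009586-141010770 (minus strand), read 157, 232 and 154 CPM for Sca-1+ tdT+, 237 and 291 CPM for Sca-1+ tdT-, 142, 160.1 and 106 CPM for libraries labelled Sca-1neg tdT+ and 94.0, 174 and 94.6 CPM for Sca-1neg tdT-. Both Sca-1+ tdT- values exceeded all 9 others, and Sca-1neg tdT- replicate 2 stood apart from the other 2 libraries of its group. Ifitm2, at chr7:140954837-140955987 (minus strand), read 22.0, 42.6 and 26.1 CPM for Sca-1+ tdT+, 40.9 and 54.3 CPM for Sca-1+ tdT-, 49.1, 41.03 and 46.9 CPM for libraries labelled Sca-1neg tdT+ and 36.9, 38.6 and 52.2 CPM for Sca-1neg tdT-. The 4 groups overlapped in Ifitm2, and 36.1% of its 50-base stretches also occur in the overlapping gene Gm45717, so its counts are uncertain. Bst2, at chr8:71534255-71537456 (minus strand), read 16.9, 31.6 and 19.4 CPM for Sca-1+ tdT+, 30.2 and 41.3 CPM for Sca-1+ tdT-, 36.8, 22.9 and 1.32 CPM for libraries labelled Sca-1neg tdT+ and 6.43, 22.7 and 6.001 CPM for Sca-1neg tdT-. The 3 Sca-1neg libraries without liver transcripts held the 3 lowest Bst2 values, and the 3 with liver transcripts lay within the Sca-1+ range. Ifitm1, the remaining factor, stayed at 0.390 to 7.50 CPM.

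Irf1 encodes a transcription factor that interferon gamma induces strongly. At chr11:53770014-53778374 (plus strand), it read 105, 60.8 and 124 CPM for Sca-1+ tdT+, 139.7 and 89.6 CPM for Sca-1+ tdT-, 97.4, 85.4 and 147 CPM for libraries labelled Sca-1neg tdT+ and 98.4, 74.3 and 67.8 CPM for Sca-1neg tdT-, and the 4 groups overlapped. The other members of the signalling group were Stat2 and Irf9, partners in the ISRE-binding complex, and Irf7, a factor that amplifies type I interferon production. Their levels ran over 31.2 to 86.5 CPM for Stat2, 33.8 to 71.6 CPM for Irf9 and 9.95 to 54.3 CPM for Irf7. Irf9 averaged 63.5 ± 13.7 CPM in Sca-1+ tdT+ (SD, n = 3), 65.5 ± 7.13 CPM in Sca-1+ tdT- (SD, n = 2), 45.0 ± 8.02 CPM in libraries labelled Sca-1neg tdT+ and 43.6 ± 8.47 CPM in Sca-1neg tdT- (SD, n = 3 each). Irf1 overlaps an antisense gene (Gm17334), and because the library kit does not mark strand the reads of each such pair cannot be told apart. Dhx58, Ifi35, Eif2ak2, Usp18, Irf7, Oasl1 and Gbp2 also overlap exons of a gene on the opposite strand, and Irf9, Parp14, Rtp4, Herc6, Ifitm2, Igtp and Gbp7 those of a gene on the same strand.

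The comparison of Sca-1+ tdT- with Sca-1neg tdT- libraries asks how the Sca-1 sort divides cells without the tracer. Most of the list was higher in the Sca-1+ cells by sign: 39 of the 41 log2 fold changes were positive, and the median was 1.25, against -0.13 over all genes tested. Both Sca-1+ tdT- libraries lay above all 3 Sca-1neg tdT- libraries in 32 of the 41 genes, a pattern that 19.9% of all genes showed. Past an adjusted p of 0.05 (edgeR's quasi-likelihood test, Benjamini-Hochberg over all genes), 2 of 41 rose and 0 fell, against 3.68% of all genes that rose and 2.06% that fell, so the share of calls was near that of all genes. At an unadjusted p under 0.05, 17 of 41 were higher, against 10.6% of all genes.

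Trim25 and Gbp2 were the 2 genes that passed. Trim25, at chr11:88999376-89020293 (plus strand), encodes a ubiquitin ligase that promotes signalling by the RNA sensor RIG-I. It read 65.0, 66.9 and 78.5 CPM for Sca-1+ tdT+, 89.5 and 127 CPM for Sca-1+ tdT-, 102, 86.1 and 56.4 CPM for libraries labelled Sca-1neg tdT+ and 49.7, 58.0 and 41.7 CPM for Sca-1neg tdT-. The Sca-1+ tdT- values lay above all Sca-1neg tdT- values, with a log2 fold change of 1.12 ± 0.25 (SE) and an adjusted p of 0.0255 in the quasi-likelihood test. Gbp2, at chr3:142620602-142638008 (plus strand), encodes a guanylate-binding GTPase that acts against pathogens inside cells. It read 68.0, 29.8 and 41.1 CPM for Sca-1+ tdT+, 103 and 75.1 CPM for Sca-1+ tdT-, 54.1, 34.7 and 11.8 CPM for libraries labelled Sca-1neg tdT+ and 20.9, 14.8 and 10.8 CPM for Sca-1neg tdT-. The Sca-1+ tdT- libraries lay above all 9 others, and against Sca-1neg tdT- the log2 fold change was 2.52 ± 0.57 (SE) with an adjusted p of 0.0368. Ifitm3, whose values are given above, had the third lowest p, with a log2 fold change of 1.13 ± 0.30 (SE) and an adjusted p of 0.0508, just above the threshold. The other highly expressed genes gave log2 fold changes of 1.61 ± 1.06 (SE) for Bst2, 0.52 ± 0.33 (SE) for Irf1, 0.16 ± 0.27 (SE) for Ifitm2 and -0.16 ± 0.19 (SE) for Ifi27, with adjusted p of 0.440, 0.413, 0.800 and 0.675.

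**Figure D3:**
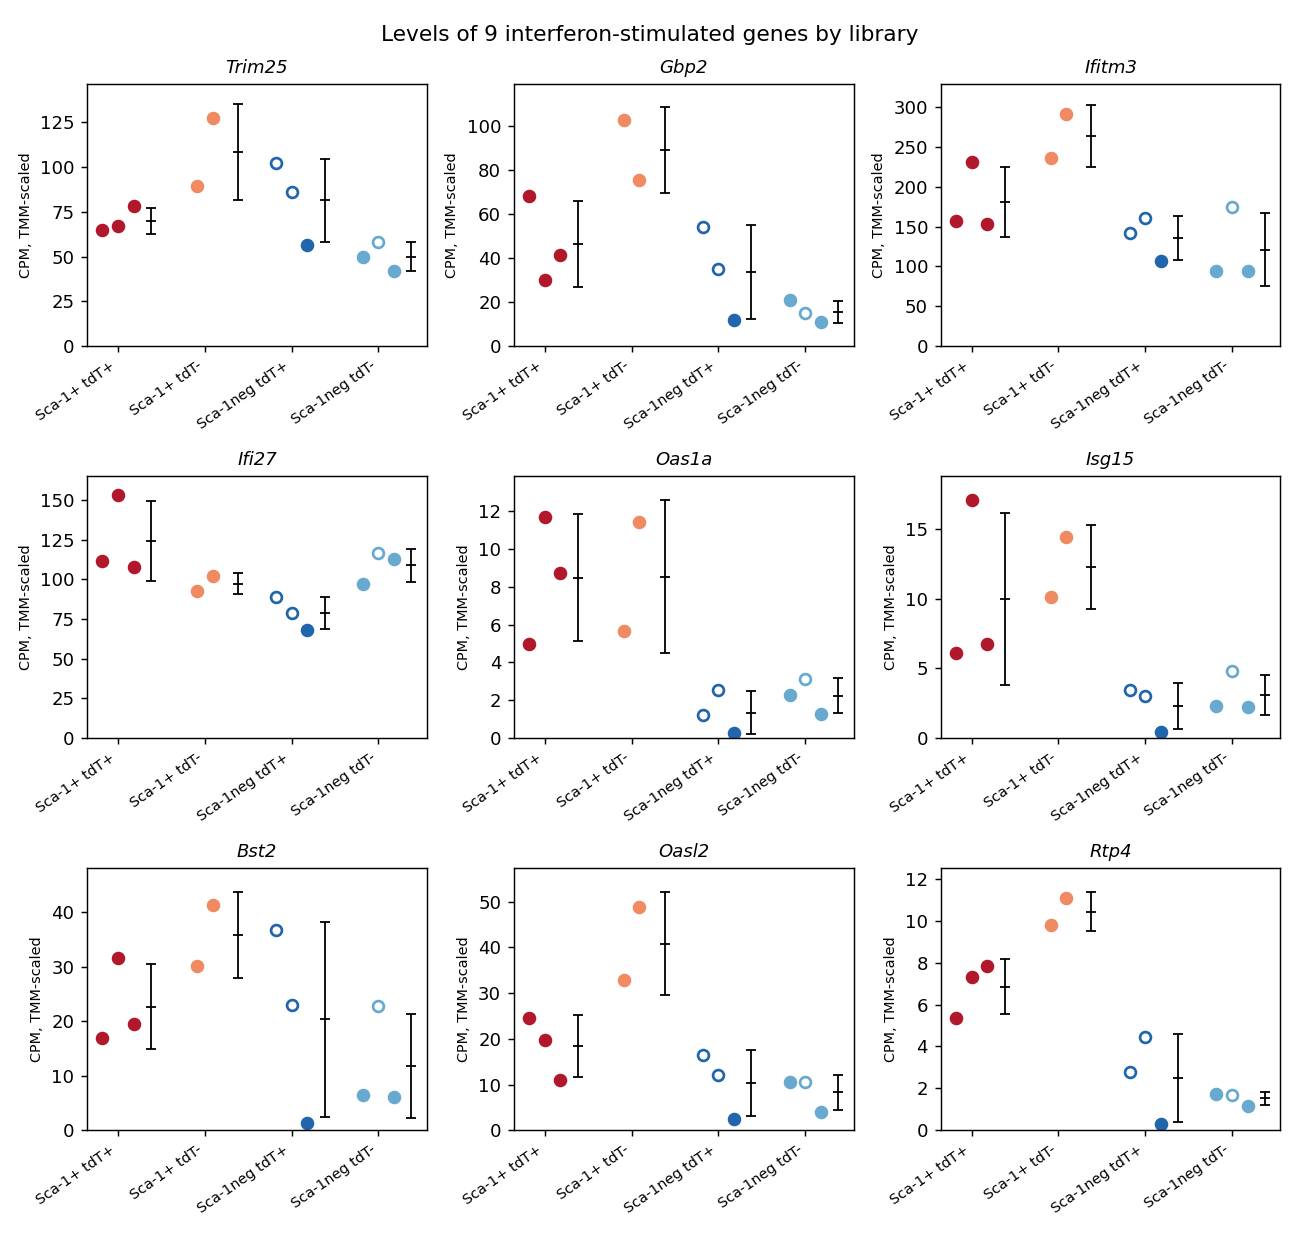
Level (CPM) of 9 interferon-stimulated genes in each library, with 1 point per library, the mean and SD of each group as a bar beside it, and open symbols for the 3 libraries with liver transcripts. For Gbp2, Ifitm3, Oasl2 and Rtp4 both Sca-1+ tdT- libraries lie above all 9 others, whereas Ifi27 has its highest value in Sca-1+ tdT+ replicate 2, and Sca-1neg tdT+ replicate 3 is lowest for Ifi27, Oas1a, Isg15, Bst2, Oasl2 and Rtp4.

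By role, the OAS family, whose active enzymes make the short oligoadenylates that switch on RNase L, had the largest median log2 fold change in this comparison (2.56), with all 5 of 5 positive. Oasl2 averaged 40.8 ± 11.3 CPM in Sca-1+ tdT- (SD, n = 2) and 8.32 ± 3.80 CPM in Sca-1neg tdT- (SD, n = 3), with an adjusted p of 0.0911 in the quasi-likelihood test. Oas3 averaged 11.2 ± 7.11 CPM in Sca-1+ tdT- and 0.767 ± 0.437 CPM in Sca-1neg tdT-, with an adjusted p of 0.0967. In both genes the groups did not overlap, but neither passed the threshold. The remaining family members ran over 0.276 to 11.7 CPM for Oas1a, 0.171 to 15.5 CPM for Oas2 and 0 to 20.5 CPM for Oasl1. Oas1a shares 57.6% of its 50-base stretches with Oas1g, so its counts are uncertain.

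The IFIT family, proteins that bind viral RNA with foreign 5' ends, had a median log2 fold change of 2.29 over 3 of 3 positive genes. Their levels ran over 0.0551 to 10.6 CPM for Ifit1, 0 to 16.4 CPM for Ifit2 and 0.0551 to 8.34 CPM for Ifit3, and 51.2% of the 50-base stretches of Ifit3 also occur in Ifit3b. In the ISG15 system, a ubiquitin-like modifier (Isg15), the enzyme that removes it (Usp18) and a ligase that attaches it in mice (Herc6), the genes differed among themselves. Isg15 averaged 12.3 ± 3.03 CPM in Sca-1+ tdT- and 3.09 ± 1.47 CPM in Sca-1neg tdT-, while Usp18 averaged 17.9 ± 3.14 CPM and 16.6 ± 0.239 CPM in the same groups (SD, n = 2 and n = 3). The Usp18 groups overlapped and the Isg15 groups did not.

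Among GTPases of the guanylate-binding and immunity-related families, all 5 were without overlap and higher in Sca-1+ tdT-, where 19.9% of all genes were. Besides Gbp2 they were Gbp3 (0.937 to 25.2 CPM), Gbp7 (10.4 to 32.8 CPM), Igtp (12.6 to 63.3 CPM) and Irgm1 (9.32 to 55.2 CPM), with fold changes of 0.89 to 2.57 on the log2 scale over the 5. Gbp7 shares some of its 50-base stretches with Gm43802, and 11.8% of those of Igtp also occur in Irgm2. In the sensing group, Ddx58 (which encodes RIG-I), Ifih1 (MDA5), Dhx58 (LGP2), Zbp1 (a sensor of Z-form nucleic acid) and Eif2ak2 (the kinase PKR) did not pass, with a median of 0.81 over the 6 genes that include Trim25. They ran over 17.2 to 58.9 CPM, 35.9 to 51.6 CPM, 1.10 to 14.9 CPM, 0.439 to 12.9 CPM and 20.5 to 37.8 CPM in that order. Among effectors, Mx1 and Mx2 (dynamin-like GTPases, of which Mx2 is annotated as a polymorphic pseudogene) and Rsad2 (viperin), Cmpk2 and Isg20 (an exonuclease) ran over 0.0551 to 10.9 CPM, 0.331 to 6.98 CPM, 0.317 to 38.1 CPM, 1.60 to 9.29 CPM and 5.68 to 9.65 CPM. Isg20 was the 1 gene of the 41 that was lower without overlap, against 26.4% of all genes, at 6.01 and 5.70 CPM for Sca-1+ tdT- and 6.47, 8.17 and 7.56 CPM for Sca-1neg tdT-. Of the last group, Rtp4 averaged 10.4 ± 0.935 CPM in Sca-1+ tdT- and 1.53 ± 0.308 CPM in Sca-1neg tdT-, with an adjusted p of 0.0606, and 11.6% of its 50-base stretches also occur in the overlapping gene Gm45338. Ifi35, Ifi44, Xaf1 and Parp14 ran over 19.7 to 30.9 CPM, 0 to 13.5 CPM, 4.41 to 20.1 CPM and 24.8 to 111 CPM.

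Without the 3 libraries with liver transcripts, 20 of the 41 rose in Sca-1+ tdT- against Sca-1neg tdT- and 0 fell, against 7.08% of all genes that rose, and the median log2 fold change was 1.72 against -0.01 over all genes. Those 20 were all 5 OAS genes, Ifit2, Ifit3, Isg15, Herc6, Ifitm3, Bst2, Gbp2, Gbp3, Igtp, Irgm1, Trim25, Zbp1, Ifi44, Rtp4 and Parp14. Bst2 had the lowest p of them, at a log2 fold change of 2.57 ± 0.34 (SE) and an adjusted p of 0.00106 in the quasi-likelihood test. With all 11 libraries the count of 2 became 12 when Sca-1neg tdT+ replicate 3 was left out (5.28% of all genes rose), 1 without Sca-1+ tdT+ replicate 3 and 0 without either Sca-1+ tdT- library, without Sca-1neg tdT- replicate 1 or without Sca-1neg tdT- replicate 3. For the fits that gave 1 or 0 the shares of all genes called are not given here. Those counts therefore cannot be set against the rate over all genes. DESeq2 called 14 higher and voom 12, against 8.48% and 6.56% of all genes. All 14 endothelial markers were higher by sign in the same comparison (1 past the threshold, sums of 5050.0 and 5438 CPM for Sca-1+ tdT- and 53.9 to 186 CPM for Sca-1neg tdT-), as were 12 of 12 macrophage markers (1 past it) and 9 of 10 Langerhans and dendritic cell markers (4 past it). T cell markers were higher by sign in 15 of 16 cases, 10 of them past the threshold, and interfollicular and upper follicle markers in 7 of 8, 3 of them past it, while 8 of 8 bulge markers were lower by sign and 3 passed. The part of these cells in the result was not tested.

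The same Sca-1 comparison among traced cells, Sca-1+ tdT+ against libraries labelled Sca-1neg tdT+, gave a list median nearer to that of all genes. The median log2 fold change was 0.16 over the 41 genes and -0.07 over all genes tested, with 26 positive values. Past the threshold 2 of 41 rose and 0 fell, against 5.94% and 6.73% of all genes, and 7 of 41 were higher without overlap, against 15.4% of all genes, so both shares were near or below those of all genes. The 2 genes were Ifi27 and Oas1a. Whether the Sca-1 difference itself differs between traced and untraced cells is the same contrast as the difference of the tdT effects given further on.

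Ifi27, at chr12:103434211-103440239 (plus strand), encodes a small hydrophobic interferon-induced protein. It read 112, 153 and 108 CPM for Sca-1+ tdT+, 92.7 and 102 CPM for Sca-1+ tdT-, 88.6, 79.1 and 68.2 CPM for libraries labelled Sca-1neg tdT+ and 97.1, 117 and 113 CPM for Sca-1neg tdT-. All Sca-1+ tdT+ values lay above all values labelled Sca-1neg tdT+, with a log2 fold change of 0.66 ± 0.17 (SE) and an adjusted p of 0.0257 in the quasi-likelihood test. Oas1a, at chr5:120896256-120907521 (minus strand), read 4.98, 11.7 and 8.72 CPM for Sca-1+ tdT+, 5.66 and 11.4 CPM for Sca-1+ tdT-, 1.22, 2.52 and 0.276 CPM for libraries labelled Sca-1neg tdT+ and 2.29, 3.12 and 1.27 CPM for Sca-1neg tdT-. Sca-1+ libraries with or without the tracer lay above all Sca-1neg libraries, and the log2 fold change among traced cells was 2.66 ± 0.72 (SE) with an adjusted p of 0.0341. Isg15, at chr4:156199424-156200818 (minus strand), followed at 6.13, 17.1 and 6.76 CPM for Sca-1+ tdT+, 10.1 and 14.4 CPM for Sca-1+ tdT-, 3.44, 3.05 and 0.441 CPM for libraries labelled Sca-1neg tdT+ and 2.29, 4.78 and 2.196 CPM for Sca-1neg tdT-. Its Sca-1+ and Sca-1neg libraries did not overlap either, and the log2 fold change of 2.11 ± 0.69 (SE) had an adjusted p of 0.0718. Fold changes of the other highly expressed genes, on the log2 scale, were 0.41 ± 0.27 (SE) for Ifitm3, -0.60 ± 0.25 (SE) for Ifitm2, -0.18 ± 0.30 (SE) for Irf1 and 0.16 ± 0.96 (SE) for Bst2, with adjusted p of 0.331, 0.138, 0.725 and 0.932.

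Leaving out the 3 libraries with liver transcripts reduced the group labelled Sca-1neg tdT+ to its replicate 3, which is then assumed to vary like the other groups. In that fit 12 of 41 rose, against 5.18% of all genes, and the median was 1.61 against 0.12 over all genes. They were Oas1a, Oas3, Oasl2, Ifit1, Ifit2, Ifit3, Isg15, Zbp1, Bst2, Ifi44, Rtp4 and Xaf1, and Ifi27 had an adjusted p of 0.0591. Several rest on few counts in that library: Ifit2 and Ifi44 had 0 there, Ifit1 and Ifit3 had 1 and Oas3 had 2. Against the 0.165 CPM that 3 counts allow, Ifit2 was at least 29.4-fold higher and Ifi44 at least 15.9-fold higher in the mean of the Sca-1+ tdT+ libraries. Bst2, with 24 counts in that library, had a log2 fold change of 4.07 ± 0.51 (SE) and an adjusted p of 0.00101. The median with Oasl1, Ifit2 and Ifi44 held at that bound was also 1.61.

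In the fit of all 11 libraries, the count of 2 became 3 without Sca-1neg tdT+ replicate 3 (Oas1a higher, Ddx58 and Gbp3 lower) and 1 without each of Sca-1neg tdT+ replicates 1 and 2, Sca-1neg tdT- replicate 1, Sca-1+ tdT+ replicates 2 (Ifitm2, lower) and 3 and Sca-1+ tdT- replicate 2. Fitted on the 2 groups alone it was 0. The shares of all genes called in these fits are not given here, so these counts cannot be set against the rate over all genes. T cell markers moved with this comparison: 16 of 16 were higher by sign in Sca-1+ tdT+ and 13 passed the threshold. Their sums were 523, 1347 and 905 CPM for Sca-1+ tdT+ and 59.7, 98.1 and 88.6 CPM for libraries labelled Sca-1neg tdT+. Other lists moved too. Hair follicle bulge markers were lower by sign in 8 of 8 cases, and all 8 passed. Of 7 basal keratinocyte markers 3 rose and 1 fell past the threshold, and 2 of 8 interfollicular and upper follicle markers rose. Liver markers were lower by sign in 12 of 12 cases, with 0 past it. The part of these cells in the levels of the interferon-stimulated genes in this comparison was not tested.

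**Figure D4:**
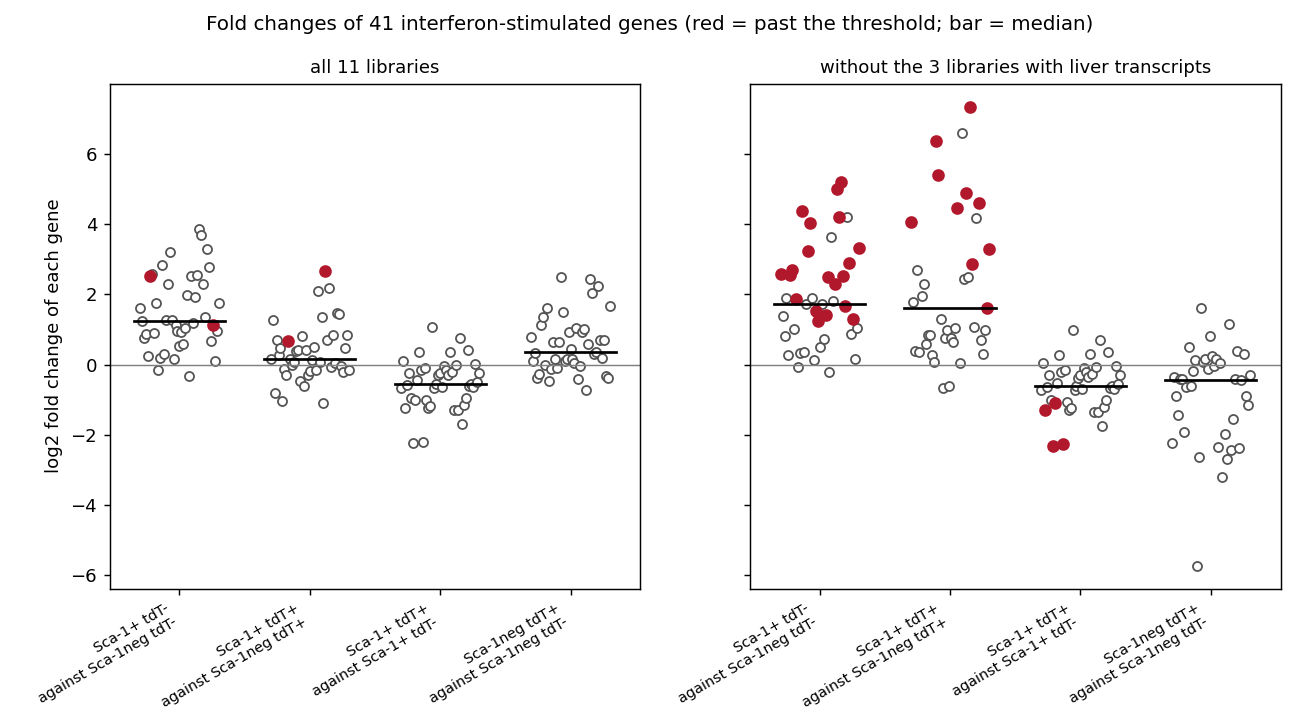
Log2 fold change of each gene in the 4 comparisons between groups, with all 11 libraries on the left and without the 3 libraries with liver transcripts on the right, where Oasl1, Ifit2 and Ifi44 (0 counts in the remaining Sca-1neg tdT+ library) are not drawn in the pair of comparisons with that group. Each circle is a gene, red circles are past an adjusted p of 0.05 and the bar is the median over the 41 genes, which for Sca-1+ tdT- against Sca-1neg tdT- is 1.25 with 2 red circles on the left and 1.72 with 20 on the right.

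Within the Sca-1+ sort, traced and untraced cells were compared as Sca-1+ tdT+ against Sca-1+ tdT-. Most of the list was lower in the traced cells by sign, with 34 of 41 negative log2 fold changes and a median of -0.54, against 0.04 over all genes. No gene of the 41 passed the quasi-likelihood test, where 2.74% of all genes did. At an unadjusted p under 0.05, 6 of 41 were lower, against 9.31% of all genes. DESeq2 called 1 (Ddx58, lower), against 5.42% of all genes, and voom 0. All 3 Sca-1+ tdT+ libraries lay below both Sca-1+ tdT- libraries in 13 of the 41 genes, against 17.2% of all genes.

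Gbp7, Ddx58 and Gbp3 had the lowest p. Gbp7, a guanylate-binding protein, read 17.4, 11.9 and 17.8 CPM for Sca-1+ tdT+, 30.9 and 32.8 CPM for Sca-1+ tdT-, 16.2, 24.6 and 10.4 CPM for libraries labelled Sca-1neg tdT+ and 19.2, 19.1 and 13.2 CPM for Sca-1neg tdT-. Its Sca-1+ tdT- libraries were the 2 highest of all 11, and the log2 fold change of -1.02 ± 0.33 (SE) had an adjusted p of 0.168. Ddx58, the gene of the cytosolic RNA sensor RIG-I, read 23.5, 26.3 and 19.2 CPM for Sca-1+ tdT+, 52.3 and 56.4 CPM for Sca-1+ tdT-, 58.9, 44.9 and 17.2 CPM for libraries labelled Sca-1neg tdT+ and 40.9, 32.4 and 23.5 CPM for Sca-1neg tdT-. The Sca-1+ tdT+ values all lay below both Sca-1+ tdT- values, with a log2 fold change of -1.24 ± 0.41 (SE) and an adjusted p of 0.175. Gbp3, a relative of Gbp2 and Gbp7, read 2.37, 6.42 and 5.47 CPM for Sca-1+ tdT+, 19.5 and 25.2 CPM for Sca-1+ tdT-, 15.2, 13.0 and 0.937 CPM for libraries labelled Sca-1neg tdT+ and 4.48, 4.18 and 2.63 CPM for Sca-1neg tdT-. Both Sca-1+ tdT- values were above all 9 others, and the log2 fold change was -2.24 ± 0.84 (SE) with an adjusted p of 0.243. The 1 gene that was higher without overlap, a pattern of 15.8% of all genes, was Ifi27, with a log2 fold change of 0.35 ± 0.19 (SE) and an adjusted p of 0.438. The other 4 highly expressed genes had log2 fold changes of -0.54 ± 0.30 (SE) for Ifitm3, -0.66 ± 0.27 (SE) for Ifitm2, -0.24 ± 0.33 (SE) for Irf1 and -0.66 ± 1.06 (SE) for Bst2, with adjusted p of 0.455, 0.296, 0.840 and 0.874.

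None of the 3 libraries with liver transcripts belongs to these groups, but when they were left out of the shared fit 4 of the 41 fell (Ddx58, Gbp3, Gbp7 and Ifi44), against 5.15% of all genes. Ddx58 then had a log2 fold change of -1.31 ± 0.25 (SE) and an adjusted p of 0.0103, and Ifi44 one of -2.26 ± 0.49 (SE) and 0.0207. The 0 calls with all 11 libraries became 2 lower when Sca-1neg tdT+ replicate 3 was left out (3.34% of all genes) and 1 lower when Sca-1+ tdT+ replicate 2 was (2.04%). All 14 endothelial markers were lower by sign in Sca-1+ tdT+ than in Sca-1+ tdT- (1 past the threshold, sums of 72.6, 134 and 168 CPM for Sca-1+ tdT+ and 5050.0 and 5438 CPM for Sca-1+ tdT-), and so were 12 of 12 macrophage markers, while 16 of 16 T cell markers were higher by sign, 7 of them past the threshold. Hair follicle bulge markers were lower by sign in 8 of 8 cases, 4 of them past the threshold. Langerhans and dendritic cell markers were lower by sign in 9 of 10 cases, 1 of them past it. The part of these cells in the fold changes of the list was not tested.

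Within the Sca-1neg sort, libraries labelled Sca-1neg tdT+ were compared with Sca-1neg tdT-. No gene of the 41 passed the quasi-likelihood test, where 0.0640% of all genes did, and the counts by DESeq2 and voom were also 0. At an unadjusted p under 0.05, 3 were higher and 1 lower, against 4.47% and 3.86% of all genes. The median log2 fold change was 0.36, against -0.03 over all genes, with 30 of 41 positive. The library labelled Sca-1neg tdT+ replicate 2 counts as traced in these values although its tracer level was that of tdT- libraries.

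Trim25, whose values are given above, had the lowest p, with a log2 fold change of 0.71 ± 0.23 (SE) and an adjusted p of 0.405, and the groups overlapped at the lowest traced value, that of replicate 3. Herc6, a ligase for the modifier ISG15 in mice, read 7.86, 11.6 and 8.46 CPM for Sca-1+ tdT+, 15.2 and 10.01 CPM for Sca-1+ tdT-, 22.7, 6.59 and 5.07 CPM for libraries labelled Sca-1neg tdT+ and 4.19, 4.10 and 3.001 CPM for Sca-1neg tdT-. Its 3 libraries labelled Sca-1neg tdT+ lay above all Sca-1neg tdT- libraries, by a log2 fold change of 1.60 ± 0.51 (SE) with an adjusted p of 0.409, and 12% of its 50-base stretches also occur in the overlapping gene Gm45193. Ifi27 was lower without overlap in libraries labelled Sca-1neg tdT+, with a log2 fold change of -0.47 ± 0.17 (SE) and an adjusted p of 0.480. Over the whole list, 2 genes were higher without overlap and 2 lower, against 5.07% and 10.9% of all genes. Fold changes of the other highly expressed genes on the log2 scale were 0.17 ± 0.27 (SE) for Ifitm3, 0.10 ± 0.25 (SE) for Ifitm2, 0.46 ± 0.30 (SE) for Irf1 and 0.80 ± 0.97 (SE) for Bst2, with adjusted p of 0.900, 0.932, 0.737 and 0.876.

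The direction of the list in this comparison turned with the 3 libraries with liver transcripts. Without them 12 of 41 log2 fold changes were positive and the median was -0.43 against -0.12 over all genes, with 0 past the threshold (0.177% of all genes). The change of Bst2 was -2.23 ± 0.49 (SE) on the log2 scale without them, the opposite sign of its value with all libraries, and its adjusted p was 0.124. Macrophage markers were higher by sign in all 12 of 12 cases with all libraries, with sums of 218, 471 and 11.2 CPM for libraries labelled Sca-1neg tdT+ and 10.7, 134 and 8.66 CPM for Sca-1neg tdT-. T cell markers were higher by sign in 15 of 16 cases, 10 of them without overlap and 2 past the threshold. So were 13 of 14 endothelial, 10 of 10 Langerhans and dendritic cell and 7 of 8 interfollicular and upper follicle markers, with 0 past it. Lower by sign were 6 of 8 bulge and 7 of 7 basal keratinocyte markers, also with 0 past it. The 3 libraries with liver transcripts held the 3 highest of the 6 macrophage sums and also the 3 highest sums of the 41 genes in the Sca-1neg sort. The part of liver RNA or of any of these cell types in these levels was not tested.

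The tdT effect was then compared between the sorts, as the effect in Sca-1+ cells minus that in Sca-1neg cells. This contrast uses all 4 groups, so it shares libraries with every comparison above. No gene of the 41 passed the quasi-likelihood test, where 0.483% of all genes did, DESeq2 called 3 (Trim25, Gbp2 and Gbp3, all lower, against 3.67% of all genes) and voom 0. At an unadjusted p under 0.05, 8 of 41 were lower and 1 higher, against 7.44% and 4.75% of all genes. The median was -1.14 on the log2 scale, against 0.05 over all genes, with 34 of 41 negative. The lowest p were those of Trim25 at -1.34 ± 0.34 (SE), Ifi27 at 0.82 ± 0.25 (SE) and Gbp3 at -3.60 ± 1.14 (SE), with adjusted p of 0.129, 0.209 and 0.232. The highly expressed Ifitm3, Ifitm2, Irf1 and Bst2 gave -0.71 ± 0.40 (SE), -0.76 ± 0.37 (SE), -0.70 ± 0.45 (SE) and -1.45 ± 1.43 (SE), with adjusted p of 0.516, 0.444, 0.579 and 0.751. Without the 3 libraries with liver transcripts the median was -0.02, against 0.12 over all genes, with 20 of 41 positive and 0 past the threshold (1.02% of all genes). Without Sca-1neg tdT+ replicate 3 alone, Ddx58, Gbp3 and Trim25 were past it and lower (1.59% of all genes).

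Genes upstream of the list were examined as a separate list of 42 ligands, receptors, signalling proteins and regulatory factors, of which 34 passed the filter and were tested. In Sca-1+ tdT- against Sca-1neg tdT-, 7 of the 34 rose and 0 fell. In Sca-1+ tdT+ against libraries labelled Sca-1neg tdT+, 7 rose and 0 fell. The shares of all genes that rose were 3.68% and 5.94% in those comparisons. In both tdT comparisons 0 of 34 passed the quasi-likelihood test (4 at an unadjusted p under 0.05 in the Sca-1+ sort, against 14.5% of all genes, and 5 in the Sca-1neg sort, against 8.33%). Without the 3 libraries with liver transcripts 13 were higher among untraced cells, against 7.08% of all genes in that fit. Within the Sca-1+ sort the counts were then 1 higher (Ifng), against 0.843% of all genes, and 2 lower (Ifnar2 and Tmem173), against 5.15%. The group labelled Sca-1neg tdT+ was its replicate 3 alone in that fit, where Ifng read 0.0551 CPM and Irf8 0.220 CPM. Ifng, Ifngr1, Irf5 and Irf8, for example, were higher in Sca-1+ tdT+ than in that 1 library by 7.34, 1.96, 1.53 and 3.74 on the log2 scale.

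Of the 10 ligands listed, Ifng and Ifnk passed the filter. Ifng encodes interferon gamma, a cytokine of T cells and natural killer cells, and read 3.30, 13.97 and 12.03 CPM for Sca-1+ tdT+, 0.665 and 0.0838 CPM for Sca-1+ tdT-, 0.544, 0.107 and 0.0551 CPM for libraries labelled Sca-1neg tdT+ and 0.0207, 0.264 and 0.0976 CPM for Sca-1neg tdT-. The 3 Sca-1+ tdT+ libraries were the highest of all 11, and against libraries labelled Sca-1neg tdT+ the log2 fold change was 5.32 ± 1.19 (SE) with an adjusted p of 0.0147 in the quasi-likelihood test. Against Sca-1+ tdT- it was 4.67 ± 1.36 (SE), with an adjusted p of 0.120, and 4.57 ± 0.98 (SE) with an adjusted p of 0.0202 without the libraries with liver transcripts. Ifnk, the keratinocyte interferon kappa, ran from 0 to 3.80 CPM, and the type I genes Ifnb1, Ifne, Ifna1, Ifna2 and Ifna5 and the type III gene Ifnl2 were at 0 in all 11 libraries, with Ifna4 and Ifnl3 counted in Sca-1neg tdT- replicate 2 alone. The T cell marker sums given above were also highest in the 3 Sca-1+ tdT+ libraries, and their part in the Ifng level was not tested.

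Downstream of that ligand, Ifngr1, a subunit of its receptor, read 123, 109 and 152 CPM for Sca-1+ tdT+, 126 and 90.6 CPM for Sca-1+ tdT-, 48.1, 70.9 and 32.5 CPM for libraries labelled Sca-1neg tdT+ and 33.8, 27.2 and 27.2 CPM for Sca-1neg tdT-. All 5 Sca-1+ libraries lay above all 6 Sca-1neg libraries, with log2 fold changes of 1.34 ± 0.26 (SE) among traced and 1.88 ± 0.28 (SE) among untraced cells and adjusted p of 0.00772 and 0.00593. Jak1, a kinase shared by the interferon receptors, read 389, 401 and 419 CPM for Sca-1+ tdT+, 410.3 and 402 CPM for Sca-1+ tdT-, 229, 274 and 246 CPM for libraries labelled Sca-1neg tdT+ and 226, 219 and 238 CPM for Sca-1neg tdT-. It too divided the libraries by sort without overlap, with log2 fold changes of 0.69 ± 0.12 (SE) and 0.84 ± 0.14 (SE) and adjusted p of 0.00519 and 0.00821. Among traced cells Jak1 had an adjusted p of 0.0558 without the libraries with liver transcripts, and Ifngr1 one of 0.00344.

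Other calls were of regulatory factors and sensors. Myd88, an adaptor of Toll-like receptors, rose in both Sca-1 comparisons, by 0.69 ± 0.15 (SE) among traced and 0.67 ± 0.17 (SE) among untraced cells on the log2 scale (adjusted p 0.0148 and 0.0427). Irf5, a factor that acts in myeloid cells, rose by 1.30 ± 0.29 (SE) among untraced cells (adjusted p 0.0255), Irf4 by 3.49 ± 0.78 (SE) (adjusted p 0.0271) and Aim2, a sensor of cytosolic DNA, by 4.21 ± 0.96 (SE) (adjusted p 0.0296). Irf5 among traced and Jak2 among untraced cells also passed. Without the libraries with liver transcripts the 7 rises among untraced cells all remained, whereas among traced cells Myd88 had an adjusted p of 0.143. Irf4 stood at 8.04 and 5.36 CPM for Sca-1+ tdT- and 1.07, 0.423 and 0.268 CPM for Sca-1neg tdT-, without overlap.

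**Figure D5:**
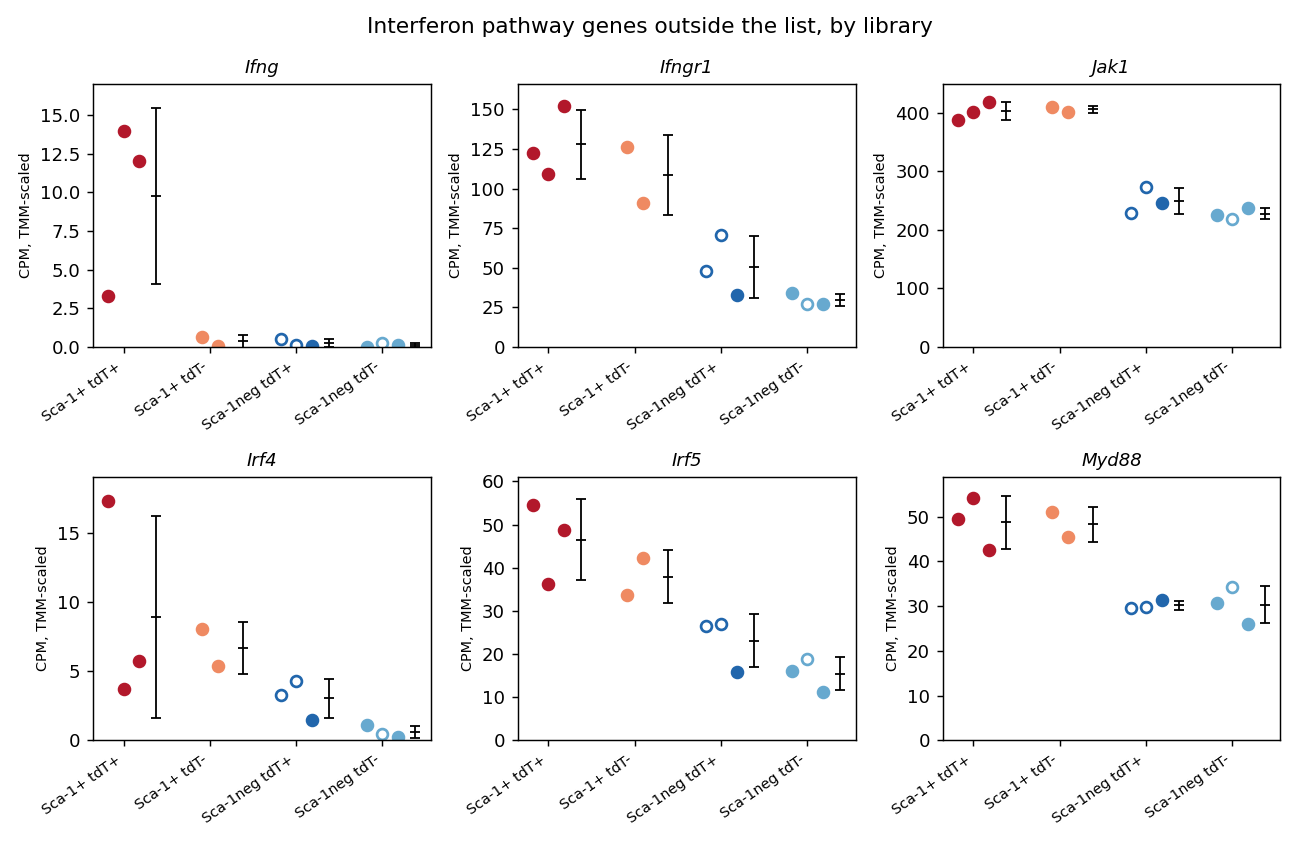
Level (CPM) of 6 genes upstream of the list in each library, with 1 point per library, the mean and SD of each group beside it, and open symbols for the 3 libraries with liver transcripts. Ifng is highest in the 3 Sca-1+ tdT+ libraries, and for Ifngr1, Jak1 and Myd88 all Sca-1+ libraries lie above all Sca-1neg libraries.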

How the data were processed

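Gene counts were deposited by the authors as whole numbers of reads per Ensembl gene, 1 file per library. Per the submitters' processing notes, the tools were STAR and featureCounts with the mm10 build, besides bcl2fastq 2.20.0.422, DESeq2 1.18.1 and FastQC. The strand setting, the release of the annotation and the handling of reads that match several genes were not given in the sources used here. Libraries were made with a TruSeq RNA kit (version 2) that does not mark strand, per the labels' protocols. Symbols were taken from GENCODE M21, which matched all 55536 identifiers, and 1 entry that is not a gene (the tdT tracer) was kept out of library sizes and tests. The 41 genes, the marker lists and the 42 upstream genes were chosen with earlier results of these data known.

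Counts were filtered with filterByExpr, scaled by TMM and tested with edgeR 4.0.16 in R 4.3.3 (quasi-likelihood, robust, 1 coefficient per group, all 11 libraries, 7 residual degrees of freedom, 20307 genes). P-values are two-sided, were adjusted by Benjamini-Hochberg over the whole table and are read at a threshold of 0.05. Each SE comes from dividing the absolute log2 change by the root of its F statistic. CPM values are TMM-scaled. A gene counts as without overlap where every library of one group lies beyond every library of the other. Genes named with full values are those past the threshold, the 3 of lowest p where fewer passed and the 5 of highest mean level per kb. Upstream genes are named if past the threshold, at most 6 per comparison. Myd88 among untraced cells and the genes given as examples of a role were named in addition, after their values were seen. Results of some upstream genes are not reported here. The scripts were tested on simulated counts. Alternatives were DESeq2 1.42.0, voom (limma 3.58.1), other scalings and filters, a replicate block, age in weeks as a term, the compared groups alone, and leaving out single libraries or the 3 with liver transcripts. Counts from the fit with the age term are not reported here. Replicate numbers were not used as pairs. Replicates are pools of mice, and limits on counts cover counting error only.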

Additional observations from a re-analysis of the deposited data

Results flagged for a closer look

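Ifi27 lay on opposite sides in the sorts. All 3 Sca-1+ tdT+ libraries lay above both Sca-1+ tdT- libraries, at 112, 153 and 108 CPM for Sca-1+ tdT+ and 92.7 and 102 CPM for Sca-1+ tdT-. All 3 libraries labelled Sca-1neg tdT+ lay below all 3 Sca-1neg tdT- libraries, at 88.6, 79.1 and 68.2 CPM for the labelled tdT+ libraries and 97.1, 117 and 113 CPM for Sca-1neg tdT-. The difference of the tdT effects was 0.82 ± 0.25 (SE) on the log2 scale, with an unadjusted p of 0.00718 and an adjusted p of 0.209 in edgeR's quasi-likelihood test, so it did not pass. The traced Sca-1neg value includes replicate 2, whose tracer level was that of tdT- libraries.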

How the results depend on the processing

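There were 21 alternatives, 11 of which leave out 1 library. Over them 686 of 749 log2 fold changes of named genes kept their direction and their side of the threshold. Another 23 lost a call, 32 gained one and 8 reversed. Most of the 749 belong to values that were not calls in the main fit. Among untraced cells the call of Trim25 held in 17 of 21 alternatives and that of Gbp2 in 14. Among traced cells the call of Ifi27 held in 16 of 21 and that of Oas1a in 14. All 23 lost calls were of these genes. In Sca-1+ tdT- against Sca-1neg tdT-, the 2 calls became 4 with no low-count filter, 14 with DESeq2, 12 with voom, 11 with the groups of the comparison alone and 20 without the 3 libraries with liver transcripts. For Sca-1+ tdT+ against libraries labelled Sca-1neg tdT+, the 2 calls became 1 with a filter of at least 10 CPM in 2 libraries (32 genes tested), 0 with the groups alone and 12 without the liver libraries. For Sca-1+ tdT+ against Sca-1+ tdT- the 0 calls became 1 with DESeq2, 5 with the groups alone and 4 without the liver libraries. For the difference of the tdT effects they became 1 with no filter and 3 with DESeq2, all 3 lower, against 3.67% of all genes. Shares of all genes called are not given here for several fits. These are the fits with no filter, with at least 10 CPM, with the groups alone, with a replicate block and most that leave out 1 library. Counts from those fits cannot be set against the rate over all genes. Leaving out 1 library at a time gave 0 to 12 calls, 1 to 3 calls, 0 to 2 calls and 0 to 3 calls in these 4 comparisons in that order. Within the Sca-1neg sort 0 genes passed under every alternative.

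Deviations from the group means correlated at over 0.1 in 7 of 15 pairs of libraries with the same number (-0.415 to 0.589). Of 30 pairs with different numbers (-0.602 to 0.513), 2 did. Sca-1neg tdT+ replicate 1 and Sca-1neg tdT- replicate 2 (0.513) both hold liver transcripts. Sca-1neg tdT+ replicate 3 and Sca-1neg tdT- replicate 1 (0.461) do not. Between the Sca-1+ groups, which hold no library with liver transcripts, replicates 1 correlated at 0.150 and replicates 2 at 0.138. Whether same-numbered libraries share mice was not tested. With the replicate number as a block, which the labels do not tie to shared mice, the calls in Sca-1+ tdT- against Sca-1neg tdT- became 5, and no other count moved by over 1.5 times in that fit, the count of 2 among traced cells being 3 with Isg15 added. Without the liver libraries 1 Sca-1neg tdT+ library is left. Against it Bst2 reversed to -2.23 on the log2 scale in the Sca-1neg tdT comparison and to 1.503 in the difference of the tdT effects. Leaving out single libraries gave ranges that cross 0 for Irf1 among Sca-1+ cells (-0.57 to 0.11), Ifitm2 among untraced cells (-0.0102 to 0.34), and, among traced cells, Irf1 (-0.40 to 0.0838) and Bst2 (-0.40 to 0.90). The DESeq2 size factors moved the median of all genes in the difference of the tdT effects to -0.07, with that of the 41 genes at -1.23. The cause of these changes was not tested, except that fewer genes or libraries entered where the setting says so. In Sca-1neg tdT+ replicate 3 (18195195 counts), 14 of the 41 were under 1 CPM and 7 had 3 counts or fewer. Both numbers were 0 in Sca-1+ tdT+ replicate 2 (17409131 counts). In Sca-1neg tdT- replicate 3 (40709279 counts), 10 were under 1 CPM. The part of depth in these low counts was not tested.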
